A study of Mus musculus with 12 samples.

Results

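The 9 genes described here, Adipoq, Cfd, Plin1, Plin4, Fabp4, Cidec, Lep, Car3 and Cyp2e1, are genes of the fat cell. They were taken by symbol from a table of raw counts with 23479 gene symbols, and all 9 were in it. The counts come from bulk RNA-seq of 12 mouse prostate tumours in 4 groups of 3: Lupron/anti-CSF1, anti-CSF1, Lupron and control IgG. Every C57BL/6J mouse carried a tumour of the prostate cancer line PTE-82, labelled TMPRSS2-ERG+, from 100000 cells put into the prostate in 40 µl of a PBS and Matrigel mix. The Lupron/anti-CSF1 and Lupron groups received 0.6 mg of Lupron per mouse on day 4, and the Lupron/anti-CSF1 and anti-CSF1 groups received the antibody on days 9 and 14. All mice were perfused and their tumours frozen on day 17. Lupron is leuprolide, a drug that lowers testosterone, and CSF1 is a growth factor that macrophages need. The labels state neither whether Lupron mice also had control IgG nor the age of the mice, and they name no batch. All tumours came from 1 cell line, the labels do not say whether surrounding tissue was trimmed off, and p-values measure the spread between these 12 tumours.

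White fat cells store triglyceride in 1 large droplet, coat it with perilipins, move fatty acids with carrier proteins and secrete hormones into the blood. Fat pads lie around the prostate and seminal vesicles of the mouse. In bulk tissue a lower level of these genes can come from fewer fat cells or from less RNA per fat cell, which cannot be told apart.

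Total counts per tumour ran from 20584363 to 29965355, and RNA integrity numbers lay between 8.2 and 9.8. At this depth a gene with no counts in a tumour could still be present at 0.101 to 0.172 CPM (counts per 1000000), the level worth 3 counts, and in a whole group of 3 tumours at 0.0382 to 0.0409 CPM. CPM was scaled by TMM, which corrects for a few genes taking up a library. The macrophage list, of which 9 of 10 genes were analysed here, was lower with the antibody, as 8 of the 9 passed the test averaged over Lupron, at which 1.87% of all genes passed. IgG replicate 3 stood apart from the other 11 tumours: its 10 proliferation genes had a mean log2(CPM + 1) of 2.65, against 6.27 to 7.21 in the others, and it had the highest means for prostate secretion, luminal epithelium, smooth muscle and skeletal muscle genes. The fold changes against IgG are given below with and without it.

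The tumours differed widely in these genes, within as well as between groups. The 9 genes together took 0.43% of all counts in IgG replicate 3 (exact 95% interval 0.428 to 0.433, which covers counting error only). IgG replicate 2 followed with 0.0582% and Lupron/anti-CSF1 replicate 1 with 0.0382%, and the other 9 tumours lay between 0.00189% and 0.00878%. Without Fabp4, which is treated separately below, the sum of the other 8 genes was 252, 2.13 and 61.7 CPM in the Lupron/anti-CSF1 tumours, 0.374, 0.901 and 0 CPM in the anti-CSF1 tumours, 35.9, 4.3 and 13.7 CPM in the Lupron tumours, and 30.1, 481 and 3290 CPM in the IgG tumours, replicates 1, 2 and 3 in turn. The 3 anti-CSF1 tumours were the 3 lowest of the 12, and 1 tumour of the Lupron/anti-CSF1 group and 1 of the Lupron group were close to them. More than 3 counts were found for all 9 genes in 5 tumours, namely all 3 IgG tumours and Lupron/anti-CSF1 replicates 1 and 3, and for 8 genes in Lupron replicates 1 and 3.

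**Figure D1:**
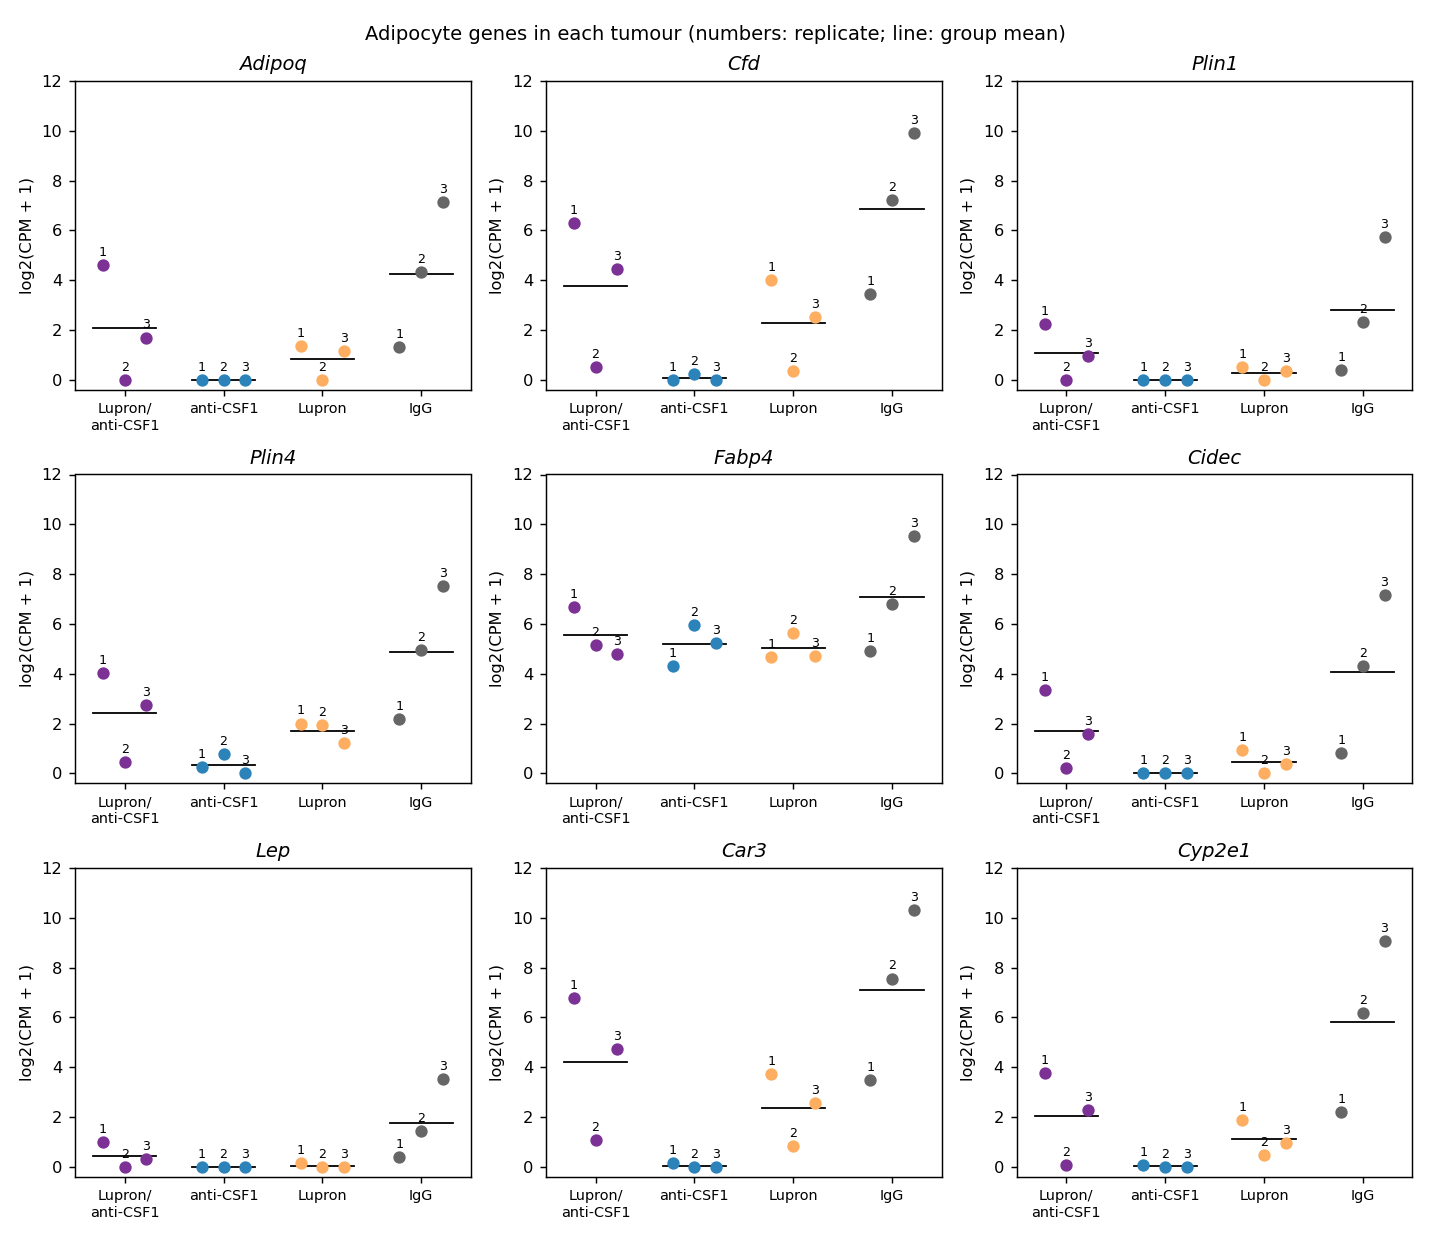
Level of each of the 9 genes in each tumour, as log2(CPM + 1) on the y axis and by treatment group on the x axis; each point is 1 tumour with its replicate number, and the line is the mean of 3. The anti-CSF1 tumours sit at or near 0 for 8 genes, Fabp4 is at 18.9 CPM or more in every tumour, and IgG replicate 3 is the highest tumour for every gene.

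Adipoq encodes adiponectin, the hormone secreted in the largest amounts by fat cells, which raises insulin sensitivity, and lies at chr16:23146536-23158028 on the plus strand (GRCm38, GENCODE M21, as all gene positions here). Its counts were 594, 0 and 65 in the Lupron/anti-CSF1 tumours, 0, 0 and 0 in the anti-CSF1 tumours, 46, 0 and 35 in the Lupron tumours, and 39, 457 and 3919 in the IgG tumours. In CPM that is a mean of 8.49 ± 12.8 with Lupron/anti-CSF1, 0 with anti-CSF1, 0.924 ± 0.818 with Lupron and 53.4 ± 75.1 with IgG (SD, n = 3 each). The SD exceeded the mean in the Lupron/anti-CSF1 and IgG groups, and 5 tumours of 3 groups had no Adipoq count. Every IgG tumour was above every anti-CSF1 tumour, whereas the Lupron/anti-CSF1 and Lupron tumours overlapped with IgG. Lep encodes leptin, the hormone that reports fat stores to the brain, and lies at chr6:29060220-29073877 on the plus strand. It had 25, 0 and 7 counts with Lupron/anti-CSF1, 0 in all 3 tumours with anti-CSF1, 3, 0 and 0 with Lupron, and 8, 40 and 296 with IgG. The same 3 tumours were highest as for Adipoq, and all 3 IgG tumours were above all Lupron tumours. Cfd encodes adipsin, the protease complement factor D, which fat cells secrete, and lies at chr10:79890853-79892655 on the plus strand. It stood at 77.2, 0.427 and 21.1 CPM with Lupron/anti-CSF1, at 0, 0.19 and 0 CPM with anti-CSF1, at 14.9, 0.287 and 4.69 CPM with Lupron, and at 10, 149 and 963 CPM with IgG. Cfd separated anti-CSF1 tumours from IgG tumours without overlap, and Lupron replicate 1 lay above IgG replicate 1.

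Because the adipokine genes had like profiles across tumours, the members' promoters were searched for 4 motifs on both strands in the 250 bases before the transcription start: TATAAA, known as the TATA box, CCAAT, the element of the same name, AGGTCA (nuclear receptor half-site) and TTGCGCAA (the palindrome bound by C/EBP factors, which act in fat cell differentiation). RefSeq promoter entries, on GRCm38.p6, were matched for 7 of the 9 genes, with 8 entries. The last 120 bases before the start are shown for the adipokine promoters that held a match, 5′ to 3′, with the matches in capitals. The Lep stretch is chr6:29060101-29060220 and the Adipoq stretch chr16:23146416-23146535, both on the plus strand.
Lep: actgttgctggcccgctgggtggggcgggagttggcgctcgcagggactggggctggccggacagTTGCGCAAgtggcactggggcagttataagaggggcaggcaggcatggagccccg
Adipoq: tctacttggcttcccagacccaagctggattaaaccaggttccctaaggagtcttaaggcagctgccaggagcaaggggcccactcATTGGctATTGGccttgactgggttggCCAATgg
In Lep the capitals mark the C/EBP palindrome at −55 to −48 from the start, and in Adipoq they mark 3 CCAAT matches, of which 2 read as ATTGG on this strand. The C/EBP palindrome was in 1 of the 8 entries and in 0.164% of 32851 mouse promoters of the same length. CCAAT was in 3 of 8 entries (Adipoq, Cyp2e1 and Plin4) and 33.8% of promoters, TATAAA in 1 of 8 (Cyp2e1) and 12.4%, and AGGTCA in 0 of 8 and 14%. The matches are letters in a window and say nothing on binding in these tumours, and the 4 motifs do not overlap in any of the 8 entries.

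The droplet genes Plin1, Plin4 and Cidec were highest in the same 3 tumours, IgG replicate 3, IgG replicate 2 and Lupron/anti-CSF1 replicate 1. Plin1 encodes perilipin 1, which coats the fat droplet and controls access of lipases to it, and lies at chr7:79720218-79732903 on the minus strand. Its counts were 95, 0 and 28 with Lupron/anti-CSF1, 0 in all 3 tumours with anti-CSF1, 13, 0 and 8 with Lupron, and 8, 95 and 1483 with IgG. Lupron/anti-CSF1 replicate 1 and IgG replicate 2 had equal counts, and IgG replicate 1 lay within the range of the Lupron tumours. Cidec encodes the droplet protein that helps small droplets fuse into 1 large one, and lies at chr6:113424634-113435760 on the minus strand. It stood at 9.19, 0.16 and 2 CPM with Lupron/anti-CSF1, at 0 in all 3 tumours with anti-CSF1, at 0.913, 0 and 0.313 CPM with Lupron, and at 0.761, 18.6 and 141 CPM with IgG. Plin4 encodes perilipin 4, a coat protein of small, newly formed droplets that is also made in muscle, and lies at chr17:56100591-56109803 on the minus strand. It stood at 15.2, 0.373 and 5.75 CPM with Lupron/anti-CSF1, at 0.204, 0.711 and 0 CPM with anti-CSF1, at 3.01, 2.81 and 1.32 CPM with Lupron, and at 3.54, 30.1 and 184 CPM with IgG. Plin4 differed from the other droplet genes in Lupron replicate 2, where it had 49 counts while Adipoq, Plin1, Cidec and Lep had 0. That tumour had the third highest smooth muscle mean, 7.02 as log2(CPM + 1). Its skeletal muscle mean was 0.89, where the tumours ranged from 0.55 to 3.22. The part of muscle in its Plin4 level was not tested. Plin4 is also the only 1 of the 9 whose exons overlap another gene in the annotation, Hdgfl2, by 17 bases.

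The enzyme genes Car3 and Cyp2e1 were highest in the same 3 tumours. Car3 encodes carbonic anhydrase III, an abundant protein of mouse fat cells and of slow muscle, and lies at chr3:14863512-14872523 on the plus strand. It stood at 110, 1.12 and 25.5 CPM with Lupron/anti-CSF1, at 0.102, 0 and 0 CPM with anti-CSF1, at 12.3, 0.803 and 4.9 CPM with Lupron, and at 10.1, 188 and 1270 CPM with IgG. Lupron replicate 1 lay just above IgG replicate 1, and no anti-CSF1 tumour had more than 3 counts. Cyp2e1 encodes a cytochrome P450 that oxidizes ethanol and other small molecules, made in liver and also in fat, and lies at chr7:140763739-140774987 on the plus strand. It stood at 12.6, 0.0533 and 3.89 CPM with Lupron/anti-CSF1, at 0.068, 0 and 0 CPM with anti-CSF1, at 2.67, 0.402 and 0.938 CPM with Lupron, and at 3.61, 70.9 and 530 CPM with IgG. The 10 liver genes had a mean log2(CPM + 1) of at most 0.21 in 11 tumours and 0.67 in IgG replicate 3, with 4 of the 10 genes at 0 there.

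Fabp4, which encodes the fatty acid carrier of fat cells and is also made in capillary endothelium and some macrophages, lies at chr3:10204088-10208576 on the minus strand and was highest in the same 3 tumours, but it did not share the low values of the other 8. It stood at 103, 34.7 and 26.6 CPM with Lupron/anti-CSF1, at 18.9, 61.9 and 37 CPM with anti-CSF1, at 24.7, 48.9 and 25.3 CPM with Lupron, and at 28.8, 111 and 738 CPM with IgG. All 12 tumours had Fabp4, including the 5 without a single Adipoq count, and the anti-CSF1 range overlapped that of every other group. The Pearson correlation of its log2(CPM + 1) with the mean of the other 8 was 0.845 over 12 tumours and 0.609 without IgG replicate 3, against 0.951 to 0.991 and 0.955 to 0.98 for the other genes against their own 8; all points share the same libraries. Gpihbp1, a gene of capillary endothelium that anchors lipoprotein lipase, was in the same tumours: it stood at 23.7 CPM in Lupron/anti-CSF1 replicate 2, at 13.4, 58.2 and 24.9 CPM in the anti-CSF1 tumours and at 18.8 CPM in Lupron replicate 2, the 5 tumours without Adipoq, and at 2.92 CPM in IgG replicate 3. The 10 endothelial genes had means of 4.04 to 5.07 as log2(CPM + 1), lowest in IgG replicate 3 and highest in anti-CSF1 replicate 3, and their part in Fabp4 was not tested. The macrophage list moved with the antibody, with summed levels of 147 to 216 CPM with Lupron/anti-CSF1, 130 to 275 CPM with anti-CSF1, 901 to 1200 CPM with Lupron and 417 to 1210 CPM with IgG, none of the 9 analysed genes at 0 in any tumour.

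Levels of different genes can be compared only per length. Per kilobase of the longest coding transcript, Cfd was the highest of the 9 in IgG replicate 3, at 1040 CPM per kb, followed by Fabp4 at 824, Car3 at 758, Cyp2e1 at 289, Adipoq at 108, Cidec at 81.8, Plin4 at 31.9, Plin1 at 18.7 and Lep at 3.23. In IgG replicate 2 the order was the same, with Cfd at 161, Fabp4 at 124 and Car3 at 112 CPM per kb. In Lupron/anti-CSF1 replicate 1 Fabp4 came first, at 115 CPM per kb, before Cfd at 83.8, Car3 at 65.3 and Adipoq at 18, and Cyp2e1 stood at 6.89, below Adipoq. These orders have no test, since each is 1 tumour.

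The anti-CSF1 tumours were set against the IgG tumours to ask what the antibody alone did. All 9 genes had lower estimates with anti-CSF1, and 8 of 9 (all but Fabp4) did not overlap between the groups, against 12.8% of all 15082 genes tested with anti-CSF1 lower. None of the 9 passed edgeR's quasi-likelihood test at an adjusted p of 0.05, where 0.00663% of all genes passed; their adjusted p ran from 0.0875 to 0.135. At an unadjusted p under 0.05 all 9 were lower, against 16.7% of all genes, and DESeq2 called all 9 lower, against 10.3%. Over the group sums, Adipoq had 0 counts with anti-CSF1 and 4415 with IgG, so it was at least 1480-fold lower, Cidec likewise at least 1480-fold, Plin1 at least 531-fold and Lep at least 115-fold. These bounds rest on IgG replicate 3, which held 3919 of the 4415 Adipoq counts: without it they are 259-fold for Adipoq, 243-fold for Cidec, 53.7-fold for Plin1 and 25-fold for Lep. Leaving out any other tumour of these groups kept the Adipoq bound between 925-fold and 2200-fold, the lowest without anti-CSF1 replicate 1, when the 3-count floor rests on 2 tumours. Car3 had 3 counts with anti-CSF1 against 40514 with IgG, a ratio of 13600 (95% counting interval 4640 to 65700), and Cyp2e1 had 2 against 16683, a ratio of 8370 (2320 to 69100). Without IgG replicate 3 these ratios are 2490 (852 to 12100) and 1400 (388 to 11600), and without anti-CSF1 replicate 1, which held all of the anti-CSF1 counts, they become bounds of at least 8490-fold and 3500-fold. The log2 fold change was −12.67 ± 2.79 (SE) for Cfd, −7.96 ± 1.79 for Plin4 and −2.90 ± 1.00 for Fabp4, with adjusted p of 0.0903, 0.0903 and 0.135. Without IgG replicate 3 these were −10.45, −5.85 and −0.84. The Cfd value rests on 4 counts with anti-CSF1, all in replicate 2, and reached −16.23 with a library left out. Over the group sums Cfd had a ratio of 7750 (95% counting interval 3030 to 28400). Without IgG replicate 1 all 9 passed, with adjusted p of 0.00853 to 0.0259 in edgeR, where 11.6% of all genes passed with a lower estimate. IgG replicate 1 was the lowest IgG tumour for each of the 9 genes, so leaving it out keeps the IgG tumours with more fat RNA. Without Fabp4, the sums of IgG replicates 1, 2 and 3 were 30.1, 481 and 3290 CPM.

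The Lupron tumours were set against the IgG tumours for the effect of the drug alone. All 9 estimates were lower with Lupron, and Plin4, Lep and Cyp2e1 did not overlap between the groups, 3 of 9 against 8.53% of all genes. None passed edgeR's test, as no gene did (0% of 15082): every one of the 9 had an adjusted p of 0.284. At an unadjusted p under 0.05 all 9 were lower, against 11.7% of all genes, and DESeq2 called 6 of 9 lower against 2.62%. The log2 fold change was −7.19 ± 1.84 for Cyp2e1, −6.92 ± 2.06 for Cidec, −6.34 ± 1.88 for Car3, −5.79 ± 2.16 for Adipoq and −3.15 ± 1.01 for Fabp4 (SE). Lep had 3 counts with Lupron and 344 with IgG, a ratio of 111 (37.7 to 541). That ratio is 24.1 (7.78 to 121) without IgG replicate 3, 68.8 without Lupron replicate 3, and a bound of at least 67.7-fold without Lupron replicate 1, which held all 3 counts. Without IgG replicate 3 the log2 fold changes above were −4.76, −4.48, −4.02, −3.42 and −1.09, all with an adjusted p of 0.8. Without IgG replicate 1, the lowest IgG tumour for each of the 9 genes, 5 of the 9 passed, against 3.18% of all genes with a lower estimate.

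The Lupron/anti-CSF1 tumours against IgG had lower estimates for all 9 as well, and no gene separated the groups (12.7% of all genes did, with Lupron/anti-CSF1 lower). None passed edgeR's test (0.00663% of all genes did), with adjusted p of 0.12 to 0.373. An unadjusted p under 0.05 was reached by 3 of 9, Cyp2e1, Fabp4 and Plin4, against 16.5% of all genes, and DESeq2 called 2 of 9, Fabp4 and Cyp2e1, against 10%. The log2 fold change was −5.18 ± 1.66 for Cyp2e1, −3.43 ± 1.64 for Car3 and −2.65 ± 1.85 for Adipoq (SE). Without IgG replicate 3 these were −2.74, −1.12 and −0.27. Without IgG replicate 1, the lowest IgG tumour for each of the 9 genes, 2 of the 9 passed, against 9.4% of all genes with a lower estimate.

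The Lupron/anti-CSF1 tumours against Lupron, which asks what the antibody did on top of the drug, gave estimates in the other direction: all 9 were higher with Lupron/anti-CSF1, none passed edgeR's test (adjusted p of 1 for each, 0% of all genes passed), and the groups overlapped for every gene. An unadjusted p under 0.05 was reached by 0 of 9 and a DESeq2 call by 0 of 9, where 0.676% and 0.065% of all genes were called higher; 5.86% of all genes were higher without overlap. The log2 fold change was 3.14 ± 1.95 for Adipoq, 3.12 ± 1.80 for Cidec and 0.73 ± 0.94 for Fabp4 (SE). Adipoq was 0.29 without Lupron/anti-CSF1 replicate 1, and Fabp4 turned to −0.10. In a fit of these 2 groups alone with the replicate number as a block, added after the data were seen, Cfd passed (log2 fold change 2.10, adjusted p = 0.0104 in edgeR, higher in 3 of 3 pairs), against 0.063% of all genes with a higher estimate, and the other 7 members tested did not. The labels give no pairing, and the block was chosen from correlations in these same counts, so this p is no independent test. In replicate 2 Cfd had only 8 counts with Lupron/anti-CSF1 and 5 with Lupron. Without the block, the fit of these 2 groups called 0 members. The comparisons of the 3 treated groups with IgG share the IgG tumours, and the comparison with Lupron shares the Lupron and Lupron/anti-CSF1 tumours with them, so none is independent of the others.

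Averaged over Lupron, the antibody gave lower estimates for all 9, none of which passed (adjusted p of 0.0986 to 0.384 in edgeR, 1.87% of all genes passed). An unadjusted p under 0.05 was reached by 7 of 9, against 13.7% of all genes with a lower estimate, and DESeq2 called 5 of 9 lower against 7.96%. Lupron averaged over the antibody gave 6 higher and 3 lower estimates, of which those of Plin4, Lep and Cyp2e1 turned direction when single tumours were left out, with 0 calls by edgeR, by DESeq2 or at an unadjusted p under 0.05. Adjusted p in edgeR ran from 0.525 to 0.961, and 0% of all genes passed, with 0.0612% by DESeq2 and 9.06% at the unadjusted threshold. In both averages the 7 genes other than Fabp4 and Plin4 rest on 0 to 4 counts in the anti-CSF1 tumours together. The direction of their Lupron average then depends on the value the fit gives a nearly empty group. With Lupron against IgG alone, all 9 estimates were lower. The interaction, whether the antibody's effect differed with Lupron, had all 9 estimates positive, and none passed (adjusted p of 0.488 to 0.649, 0% of all genes). An unadjusted p under 0.05 was reached by all 9, against 6.07% of genes with a positive estimate, and DESeq2 called 8 of 9, all but Fabp4, against 1.27%. The interaction on the log2 scale was 3.63 ± 1.36 for Fabp4 and 9.55 ± 2.2 for Plin4 (SE), and without IgG replicate 3 it was 1.57 and 7.43. None is given for the other 7 genes, which had 0 to 4 counts in the anti-CSF1 tumours together.

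Counts of one gene per Adipoq count compare the makeup of the fat RNA between tumours, since length and depth drop out. The 7 tumours with Adipoq counts were Lupron/anti-CSF1 replicates 1 and 3, Lupron replicates 1 and 3 and the 3 IgG tumours. Cyp2e1 varied the most, 6.99-fold, among the 7 genes other than Lep, which had 0 counts in 1 of the tumours. It stood at 0.544 per Adipoq count in Lupron/anti-CSF1 replicate 1 (95% interval 0.473 to 0.624), 1.74 in replicate 3, 1.72 and 0.771 in the Lupron tumours, and 2.44, 3.72 and 3.8 in the IgG tumours. All 3 IgG tumours were above all 4 others, and with 3 against 4 tumours no test is given because the ratio was noticed in these data. The 95% interval of IgG replicate 1, 1.66 to 3.63, overlapped those of Lupron/anti-CSF1 replicate 3 (1.27 to 2.4) and Lupron replicate 1 (1.18 to 2.53). Plin1 varied the least, 2.69-fold, from 0.16 in Lupron/anti-CSF1 replicate 1 to 0.431 in Lupron/anti-CSF1 replicate 3. Car3, Cfd, Cidec and Plin4 varied between 2.83-fold and 3.94-fold, and Fabp4, which was also counted in tumours without Adipoq, by 4.71-fold. The ratio was lowest in Lupron/anti-CSF1 replicate 1 for Cyp2e1, Plin1, Cfd, at 3.32, Plin4, at 0.653, and Fabp4, at 4.42. For Cidec, Car3 and Lep it was lowest in Lupron replicate 3. All ratios share the Adipoq count as denominator, so a relatively high Adipoq count lowers all of them in a tumour, and its part was not tested. These intervals cover counting error only.

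**Figure D2:**
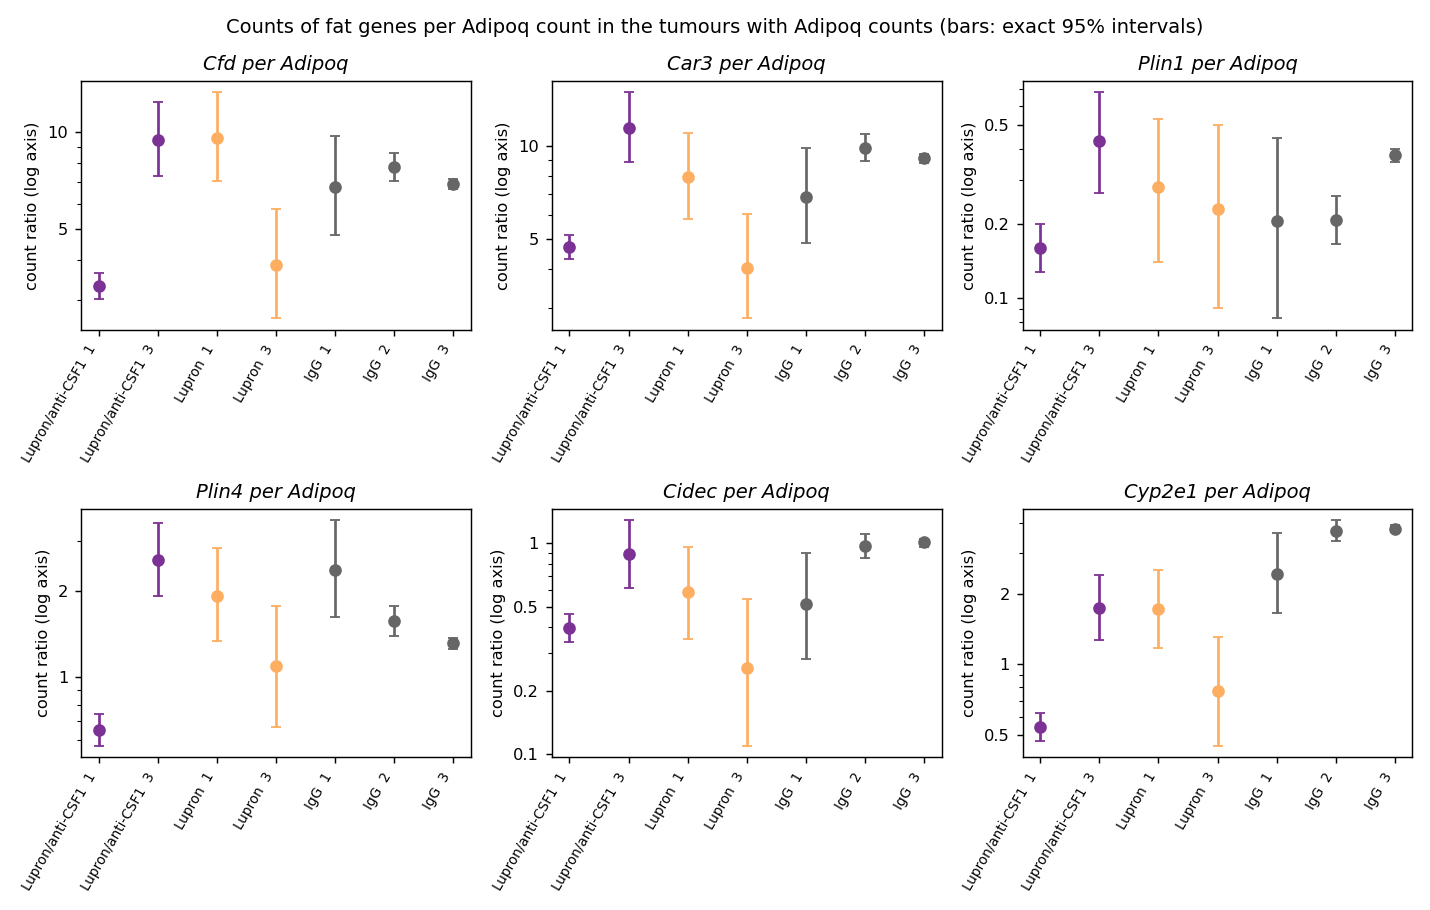
Counts of 6 genes per count of Adipoq, on a log y axis, in the 7 tumours that had Adipoq counts (x axis); points are 1 tumour each and bars are exact 95% intervals for counting error. For Cyp2e1 the IgG tumours, at 2.44 to 3.8, are above the Lupron/anti-CSF1 and Lupron tumours, at 0.544 to 1.74. The bar of IgG replicate 1 overlaps those of Lupron/anti-CSF1 replicate 3 and Lupron replicate 1.

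The 10 genes whose log2(CPM + 1) was most like the members' mean across 12 tumours, out of 12817 candidates with an average of at least 1 CPM, were Nnat, Retn, Cd36, Adig, Adtrp, Lpl, Clec3b, Itih4, Serpina3c and Tusc5, with Pearson correlations of 0.979 to 0.988. Of these, 8 were also among the 10 most alike without IgG replicate 3, where Aldh1a7 and Hp took the other 2 places. Retn, which encodes resistin, a fat cell hormone of mice, stood at 8.21, 0 and 2.41 CPM with Lupron/anti-CSF1, at 0 in all anti-CSF1 tumours, at 0.338, 0 and 0 CPM with Lupron, and at 0.647, 12.1 and 97.2 CPM with IgG. Lpl, the lipase that releases fatty acids from lipoproteins, stood at 2.21 to 3.55 CPM in the anti-CSF1 tumours and at 9.06 to 362 CPM in the IgG tumours.

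A further 74 genes of fat cells, grouped by role, were read from a list written from general knowledge but with earlier results of these data known. Of the 74, 64 were tested. Some were near 0 in most tumours: Retn and Thrsp had medians of 0.169 and 0.0889 CPM over the 12 tumours. Such genes passed the filter on low counts through the tumours where they were high. The shares below therefore describe the list and are no independent support. IgG replicate 3 was the highest of the 12 tumours for 46 of the 64 (71.9%), against 30.7% of all genes tested, and was more than 2-fold over the median of the others for 41 (64.1%), against 24.2%. The share over 2-fold was highest for regulators, 8 of 9, and lowest for thermogenic genes, 2 of 6. Pparg, the master regulator of fat cells, stood at 59.6 CPM in IgG replicate 3 and at 1.07 to 5.64 CPM in the others. Cebpa, its partner, stood at 28.2 CPM there and at 2.17 to 11.9 CPM in the others, and Lipe, the hormone-sensitive lipase, at 51.8 and 1.32 to 15.9 CPM.

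Of the other genes of the same families, Plin3, Plin5 and Cidea were highest in IgG replicate 3, and Plin2, Cideb and Fabp5 were not. Plin2, a perilipin found in most cells, stood at 50.7 CPM in IgG replicate 3 and at 29.2 to 86.3 CPM in the others, and Fabp5, a carrier of epithelium, at 19.9 and 7.59 to 25 CPM. Plin3 reached 101 CPM there, against 52.8 to 76.9 CPM in the others. Plin5, Cidea and Cideb stayed below 2 CPM in every tumour, and Cidea had 40 counts in IgG replicate 3 and 2 in Lupron/anti-CSF1 replicate 1, and 0 in the other 10. Ucp1, the heat-producing protein of brown fat, had 32 counts in IgG replicate 3, 1.14 CPM, and at most 3 in any other tumour.

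Of the 64 tested genes, 1 passed in any of the 7 comparisons: Nr1h3, the LXR alpha receptor that is also made in macrophages, was lower with the antibody averaged over Lupron (log2 fold change −1.50 ± 0.25 SE, adjusted p = 0.0155, edgeR), where 1.87% of all genes passed. In the anti-CSF1 against IgG comparison the smallest p values belonged to Nnat, Lpl, Cd36 and Mlxipl, with adjusted p of 0.0875 for Nnat and 0.0903 for the others in edgeR. With Lupron against IgG they belonged to Lpl, Nnat, Dgat2, which makes triglyceride, and Acsl1, which activates fatty acids, at log2 fold changes of −4.62 ± 1.14, −4.88 ± 1.33, −4.71 ± 1.31 and −2.41 ± 0.68 (SE) and an adjusted p of 0.284 each in edgeR. With Lupron/anti-CSF1 against IgG they belonged to Cebpa, at −2.15 ± 0.54 with an adjusted p of 0.113, and to Acsl1, Lipe and Pparg, at −2.48 ± 0.68, −2.42 ± 0.71 and −3.37 ± 1.00 with 0.115 each. Without IgG replicate 3, the values of Lpl, Nnat, Dgat2 and Acsl1 with Lupron against IgG were −2.58, −3.19, −1.79 and −1.13, and those of Cebpa, Acsl1, Lipe and Pparg with Lupron/anti-CSF1 against IgG were −1.33, −1.20, −1.27 and −0.88. In anti-CSF1 against IgG without that tumour, 1 of the 65 listed genes tested passed, Nnat (adjusted p = 0.0458, edgeR). In that fit 168 genes passed in all, counting both directions. All of the genes of smallest p passed in their comparison without IgG replicate 1. There 11.6%, 3.18% and 9.4% of all genes passed with a lower estimate, in the 3 comparisons in turn. IgG replicate 1 had the lowest mean of the other fat genes among the IgG tumours, 3.06 against 3.6 and 4.69 as log2(CPM + 1). The median log2 fold change of the 64 was −1.42 with anti-CSF1 against IgG, −1.31 with Lupron against IgG and −1.16 with Lupron/anti-CSF1 against IgG, against 0.014, −0.019 and −0.031 over all genes. Against Lupron, the median of Lupron/anti-CSF1 was 0.24, and 0.041 over all genes. Without IgG replicate 3, when 65 of the list were tested, the medians against IgG were −0.48, −0.42 and −0.31, and without Lupron/anti-CSF1 replicate 1 the median against Lupron was 0. A median here describes the list and has no test.

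**Figure D3:**
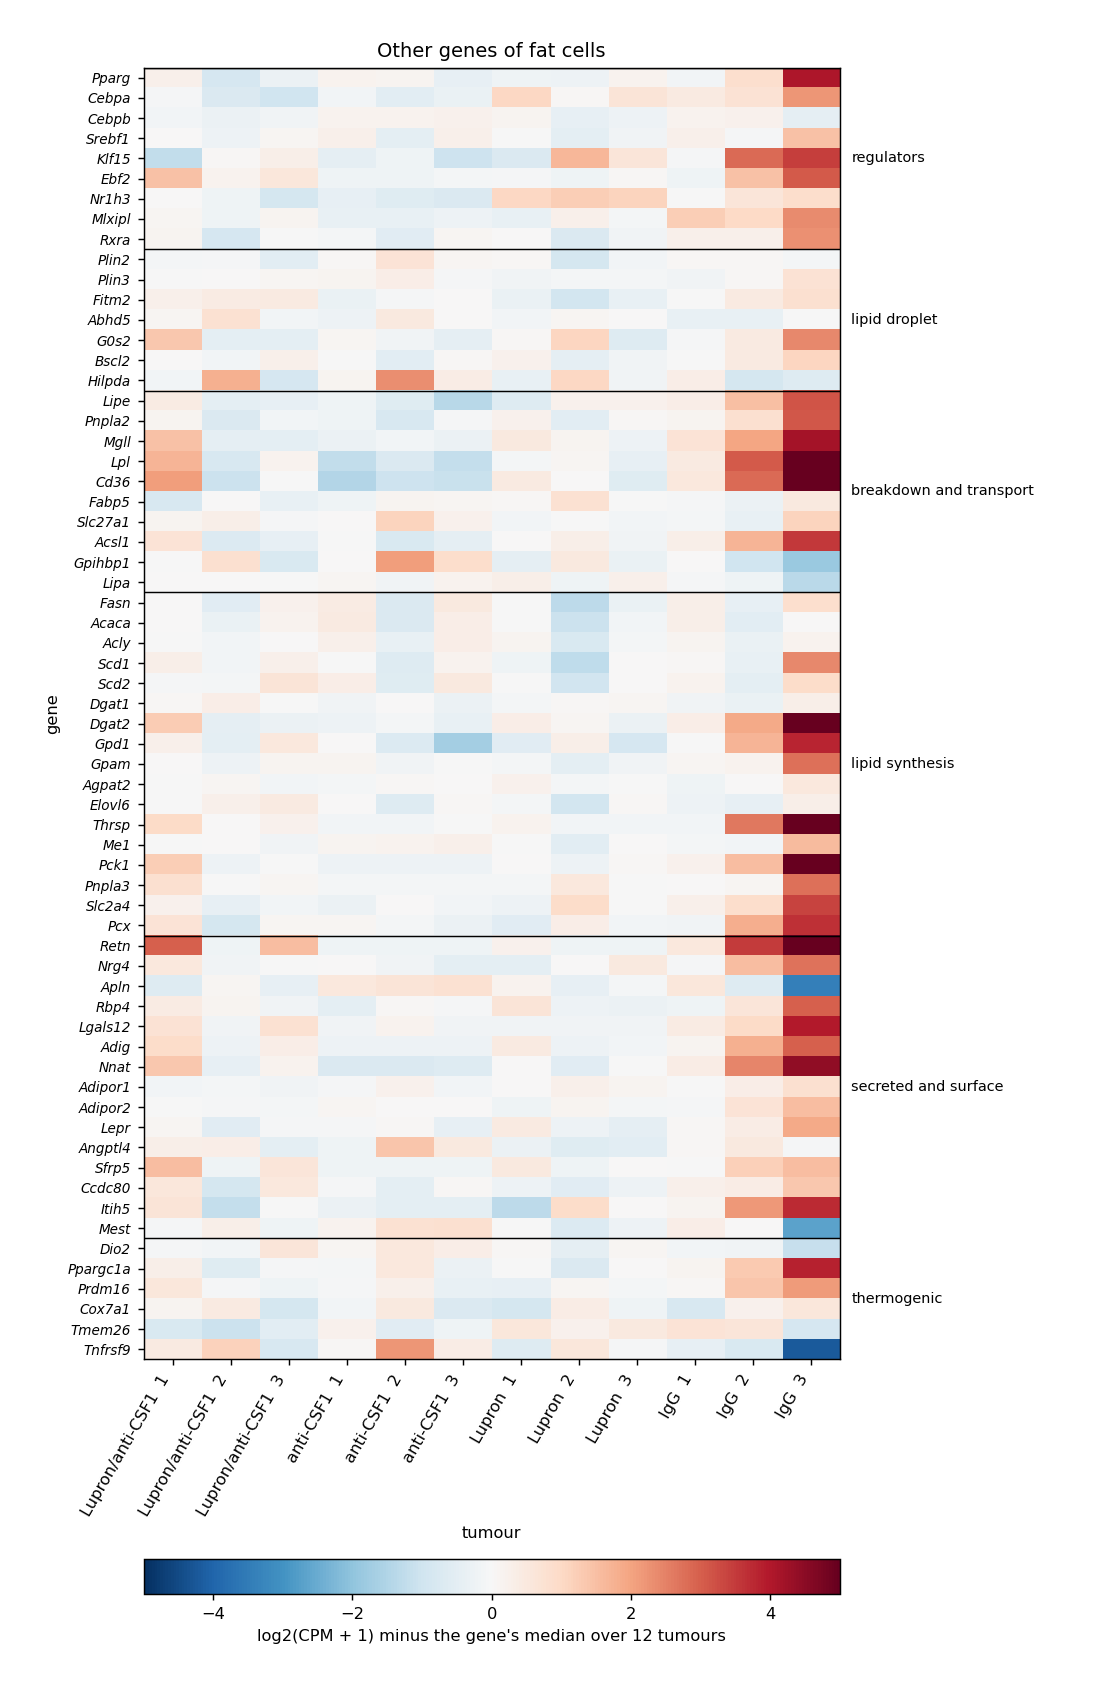
Level of the 64 tested fat genes (rows, grouped by role) in the 12 tumours (columns), as log2(CPM + 1) minus the gene's median over all tumours. In 46 of the 64 rows IgG replicate 3 is the highest tumour; Plin2, Hilpda, Gpihbp1, Mest and Tnfrsf9 are among the rows where it is not.

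Genes of other tissues were high in some of the same tumours. Smooth muscle genes had means of 9.68 and 7.75 as log2(CPM + 1) in IgG replicates 3 and 2, 7.02 in Lupron replicate 2, which had almost no fat RNA, and 4.58 to 6.03 in the other 9. Prostate secretion genes had means of 9.44 and 7.13 in IgG replicates 3 and 2 and 5.98 in Lupron/anti-CSF1 replicate 1, against 1.16 to 5.48 in the others, and skeletal muscle genes 3.22, 1.47 and 0.95, against 0.55 to 0.89. The seminal vesicle list had another order of tumours: its mean was 13.65 in Lupron replicate 2 and 12.68 in anti-CSF1 replicate 1, both without an Adipoq count, 11.73 in IgG replicate 2, which was the fourth highest, and 5.13 in IgG replicate 3. The part of such tissue in the levels of the 9 genes was not tested.

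**Figure D4:**
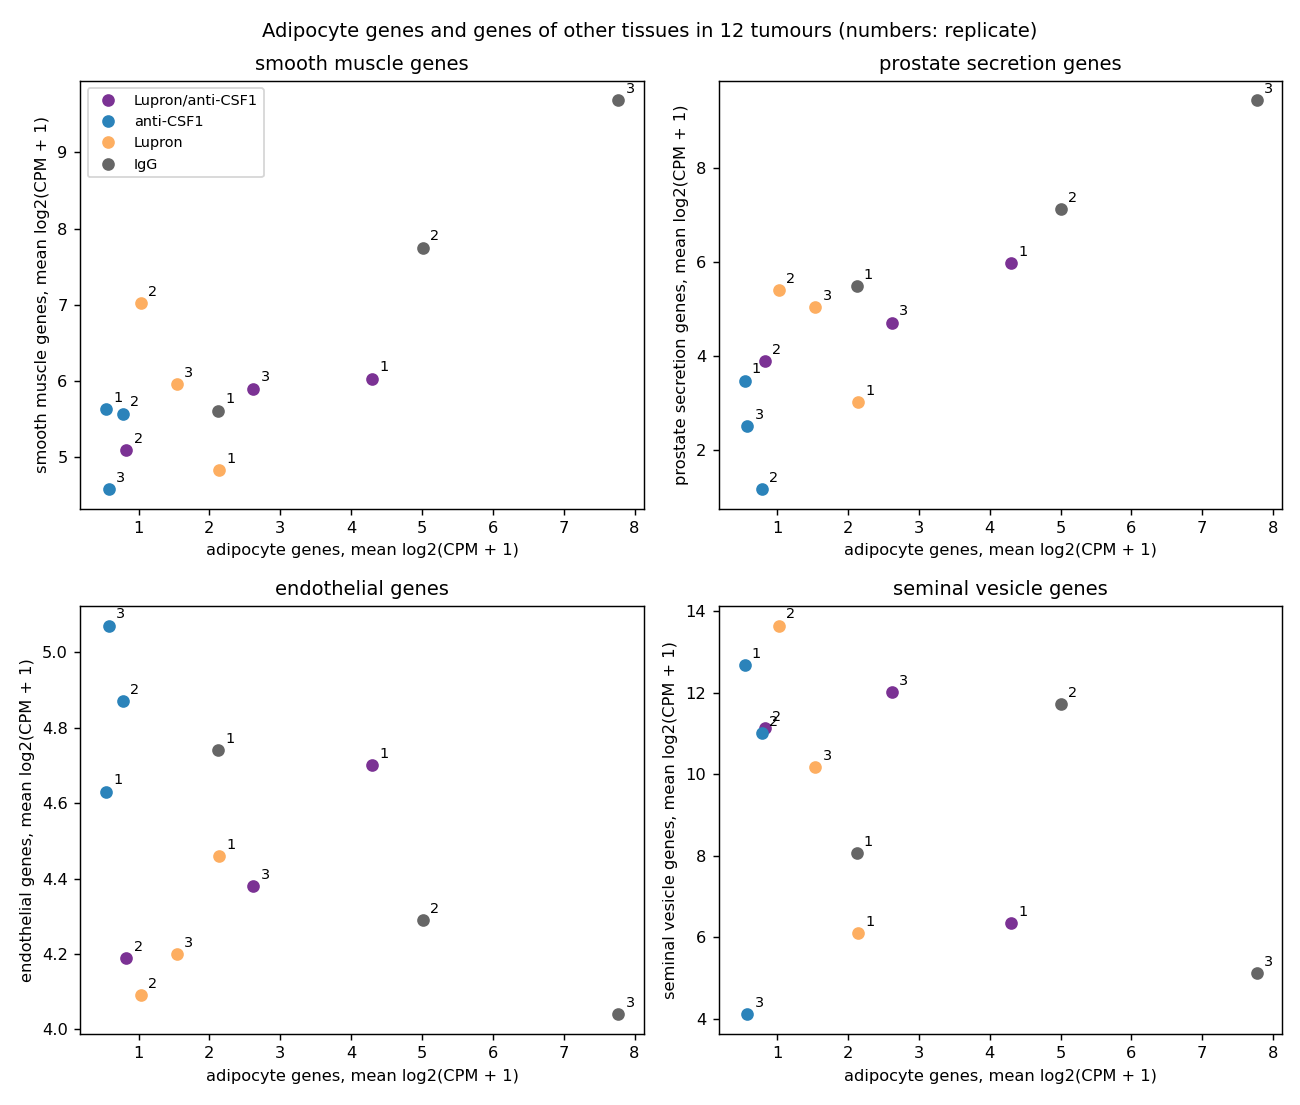
Mean log2(CPM + 1) of the 9 adipocyte genes (x axis) against that of smooth muscle, prostate secretion, endothelial and seminal vesicle genes (y axes) in 12 tumours, 1 point each with its replicate number and colour by group. IgG replicate 3 is at the top right for smooth muscle and prostate secretion, at 9.68 and 9.44, and lowest for endothelial genes, at 4.04.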

How the data were processed

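Bulk RNA-seq libraries of 12 tumours, 3 per group, came from a NuGen Ovation Mouse RNA-Seq kit according to the labels' protocols. Per the submitters' processing notes, reads went through bcl2fastq 2.20.0.422, cutadapt 1.8.1 and HTSeq 0.6.1 on build mm10; no aligner, annotation or strand setting is named there. The authors deposited raw counts per gene symbol, not normalized. Every column matched 1 label, and no pair of 66 looked like a library deposited in duplicate (lowest chi-square per degree of freedom 42.3).

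From these counts, edgeR 4.0.16 (R 4.3.3, limma 3.58.1) was fitted to all 12 libraries with TMM factors, filterByExpr (15082 genes tested, all 9 members among them) and robust quasi-likelihood tests, two-sided, Benjamini-Hochberg adjusted, called at 0.05. DESeq2 1.42.0 was an alternative, beside other scalings, filters, the replicate block and leaving out each library; for summed counts and other fat genes, leaving out libraries was added after the data were seen. SEs were derived from the log2 fold change and its F statistic. Levels are CPM on TMM-scaled totals, with a pseudocount of 1 on the log2 scale. Where a group had 0 counts, the fold is a bound from 3 counts over the group. Gene lengths and positions are from GENCODE M21, promoters from RefSeq. The fit was tested on simulated data with well-counted changed genes and less spread than the 9 members had in the IgG group. That test does not cover groups with 0 counts. The main fit paired no tumours in any comparison. Replicate numbers entered as a block only as an alternative setting, for every comparison in a fit of all 12 libraries. After the data were seen, a block fit of the compared groups alone was added for Lupron/anti-CSF1 vs Lupron. In that comparison the same-number correlations of deviations from group means were 0.217, 0.195 and 0.252, and this choice comes from the data, not the labels. The members and all gene lists were chosen with earlier results of these data known. Genes named outside the members followed a rule: up to 4 other fat genes of smallest p in a comparison, 10 genes of most like pattern, set defining genes (Pparg, Cebpa, Lipe, Retn, Ucp1) and paralogs. Gpihbp1, Hilpda, Mest, Tnfrsf9, Nr1h3, Thrsp and the genes under the closing observations were chosen after their values were seen.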

Additional observations from a re-analysis of the deposited data

How the results depend on the processing

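With 3 tumours per group the calls depended on the method and on single libraries, while 15 of 756 fold changes of members turned direction when a library was left out. The number of genes passing is given for anti-CSF1 vs IgG, Lupron vs IgG, Lupron/anti-CSF1 vs IgG, Lupron/anti-CSF1 vs Lupron, the antibody averaged, Lupron averaged and the interaction, where edgeR gave 1, 0, 1, 0, 282, 0 and 0. DESeq2 gave 1855, 427, 2011, 238, 1418, 11 and 209 genes, and 9, 6, 2, 0, 5, 0 and 8 of the members, against 0 in each with edgeR. RLE size factors gave 2, 3 and 5 genes for anti-CSF1 vs IgG, Lupron/anti-CSF1 vs IgG and Lupron/anti-CSF1 vs Lupron, upper-quartile factors 2, 4 and 7, and a filter of 1 CPM in 3 libraries 2, 3 and 5; with no filter Lupron/anti-CSF1 gave 3 vs IgG and 2 vs Lupron. Fitting only the groups compared gave 0, 0 and 204 for those 3 comparisons. The cause of these differences was not tested.

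The labels do not say that shared replicate numbers mark a pairing. Of 18 same-number correlations of deviations, from −0.304 to 0.513, 8 were over 0.1, and 6 of 12 libraries correlated best with their own number; in Lupron/anti-CSF1 vs Lupron alone all 3 pairs were over 0.1. With the replicate block, 0 genes passed for anti-CSF1 vs IgG, 0 for Lupron/anti-CSF1 vs IgG and 151 for the antibody averaged, and no member was called. With the replicate block and only the groups compared, added after the data were seen, Lupron/anti-CSF1 vs Lupron gave 246 genes and 1 member, Cfd, against 204 genes and 0 members without the block.

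Leaving out each library in turn gave 0 to 2611, 0 to 653, 0 to 2213, 0 to 210, 65 to 1577, 0 to 2 and 0 to 5 genes in the 7 comparisons, and 0 to 9, 0 to 5, 0 to 2, 0, 0 to 4, 0 and 0 members; each member call came without IgG replicate 1, and the other 11 fits called 0. Of 756 such fold changes of members, 721 kept direction and side of the threshold, 20 passed newly and 15 reversed. Of these, 14 were in Lupron averaged, where Cyp2e1 (0.17 with all libraries) ran from −0.56 to 1.47, Lep (−0.10) from −1.66 to 0.93 and Plin4 (−0.16) from −0.76 to 0.89. Lep had 0 counts in the anti-CSF1 group and Cyp2e1 had 2, so the averages of both rest on the value fitted to a nearly empty group. The other reversal was Fabp4 in Lupron/anti-CSF1 vs Lupron, which was 0.73 with all libraries and ran from −0.10 without Lupron/anti-CSF1 replicate 1 to 1.16 without Lupron replicate 2. Under the other settings, without that added fit, 379 of 410 kept both, 30 passed newly and 1 reversed, Cyp2e1 in Lupron averaged, at −0.20 with the replicate block. The median of the other fat genes in Lupron/anti-CSF1 vs Lupron, 0.24, ran from 0 to 0.33 with a library left out. All 108 levels moved by no more than the SD of their group on unscaled totals and on totals without seminal vesicle counts. In the IgG group that SD exceeded the mean for every member, so this check could hardly fail there.

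One limit is the spread within groups: Adipoq alone spanned 39 to 3919 counts over the 3 IgG tumours. Lep, at 0 to 40 counts in 11 tumours, is limited by depth.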

Other observations

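Genes of fat progenitors followed the fat cell genes only in part. Pi16, a marker of fat-tissue progenitors, stood at 7.28, 0.96 and 5.47 CPM in the Lupron/anti-CSF1 tumours, at 1.7, 1.09 and 1.32 CPM in the anti-CSF1 tumours, at 2.57, 3.61 and 3.06 CPM in the Lupron tumours, and at 3.58, 8.89 and 49.1 CPM in the IgG tumours. Every Pi16 value of the anti-CSF1 tumours was below every IgG value, which held for 12.8% of all genes tested. Pi16 did not pass edgeR's test there (adjusted p = 0.0903). Of the 8 tested progenitor genes, 6 had lower and 2 had higher estimates with anti-CSF1 against IgG. Pdgfra, made by fibroblasts and progenitors, was lowest in IgG replicate 3, at 51.7 CPM, against 119 to 341 CPM in the other 11 tumours.

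RNA for receptors of the fat hormones was counted in tumours with no count of the hormones' own RNA. Adipor1, the adiponectin receptor, stood at 110 to 141 CPM in the anti-CSF1 tumours, which had no Adipoq count, and at 119 to 214 CPM in the IgG tumours. Lepr, the leptin receptor, stood at 1.64 to 2.61 CPM with anti-CSF1, where Lep had no count, and at 2.63 to 12 CPM with IgG.

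Lipa, the lysosomal lipase, lay outside the fat pattern, at 23 CPM in IgG replicate 3 and 50.4 to 73.2 CPM elsewhere.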
